A study of Arvicanthis niloticus with 5 samples.

Results

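The levels of transcription factor genes of the SOX, FOX, KLF, HES and HEY, NEUROD, ATOH, ASCL, OLIG, ID and MAF families and of the E proteins were examined in RNA of the eye of the Nile rat (Arvicanthis niloticus), a day-active African rodent. Genes were taken by a rule that reads symbols and no measured value, although the members were chosen with earlier results of these data known. Of the 13982 genes that carried a symbol, 81 belonged to these families. The same choice of symbols covers the AP-2 family (TFAP2), but the deposited names give these genes an older mouse symbol, so none of them was among the 81, and they are described separately below. All 5 samples in the labels are wild-type eye tissue, with WT as the strain, and form 1 group. The sources used here give neither age nor time of day. The library was pooled from 5 Nile rats, per the labels' protocols, and the deposited table gives 1 value per transcript rather than 1 per sample. Whether that value comes from 1 pooled library or sums the 5 samples is stated neither in the labels nor in the table, and either way it stands for all animals together. There was therefore no comparison between groups, no replicate error and no p-value. Levels are in FPKM, a fragment count scaled by transcript length and by depth in units of 1000000 mapped fragments, and were summed over the transcripts of a gene. Brackets give 95% intervals, which cover counting error and no variation between animals.

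SOX proteins bind DNA through an HMG box and FOX proteins through a forkhead domain, while KLF proteins carry zinc fingers at their C terminus. The basic helix-loop-helix (bHLH) proteins bind as dimers: proneural factors such as NEUROD1 pair with the broadly expressed E proteins, the HES and HEY repressors act below Notch receptors, and the ID proteins lack the basic region and hold E proteins off DNA. MAF proteins are basic leucine zipper factors. In the vertebrate eye these families act in lens fibre formation, in the choice and upkeep of retinal cell types, in the ocular surface epithelium and in the mesenchyme around the eye.

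The table held 64967222 mapped fragments over 124439 transcripts. Markers of the tissue fitted the label: all 5 lens markers had at least 193.7 FPKM, all 5 photoreceptor markers at least 24.9 FPKM and all 5 Müller glia markers at least 14.6 FPKM. Markers of adjoining or other tissue were also present. Their medians were 111.9 FPKM for red blood cells, 55.3 FPKM for skeletal muscle, 8.82 FPKM for oligodendrocytes, 6.38 FPKM for endothelium and 5.16 FPKM for immune cells. A factor shared by several of these cell types therefore cannot be assigned to 1 of them. In a pool of whole tissue, fewer cells of a type and less RNA per cell cannot be told apart. Each factor rested on 7 to 10689 fragments, with a median of 666, and 13 of the 81 rested on under 100.

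A smaller share of the factors than of all genes with a symbol reached FPKM 1, 5 and 10. Of the 81 genes, 72 (88.9%) reached FPKM 1, against 93.2% of all genes with a symbol. At FPKM 5 the counts were 38 genes (46.9%) against 59.8% of all, and at FPKM 10 they were 21 genes (25.9%) against 34.0% of all. The median was 4.72 FPKM for the 81 factors (quartiles 2.36 and 10.1), against 6.51 FPKM for the other genes with a symbol (quartiles 3.03 and 13.75). The factors were 0.579% of the genes with a symbol and held 0.292% [0.289 to 0.295] of their FPKM. With no replicates, these differences from other genes were not tested.

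The highest gene was Id2, at 108.0 FPKM [103.5 to 112.7], and Neurod1 followed at 67.6 FPKM [66.3 to 68.9]. Hes1 at 49.0 FPKM [46.9 to 51.3] and Klf4 at 48.6 FPKM [46.7 to 50.5] did not differ beyond counting error. Id2 and Hes1 were each the sum of 2 transcripts. With a length-weighted mean of transcripts they were at 38.3 and 24.7 FPKM, below Neurod1 and Klf4, which each rested on a single transcript. As sums, Id2, Neurod1, Hes1 and Klf4 together held 38.0% of the summed FPKM of the 81 genes, and the 10 highest held 51.7%. Below them came Id4, Mafg, Neurod4, Klf9, Maf and Klf5, between 20.9 and 13.3 FPKM. In the order of summed levels, 12 of the 80 steps from 1 gene to the next were larger than counting error. Of these, 8 lay among the first 11 steps, from Id2 to Id3. Further down, neighbouring genes were mostly not separated. The order depends on how transcripts are combined. With the highest transcript alone, Mafg at 7.34 FPKM was below Neurod4 at 16.2 FPKM, and Sox4 at 6.64 FPKM was below Id3 at 11.6 FPKM.

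**Figure D1:**
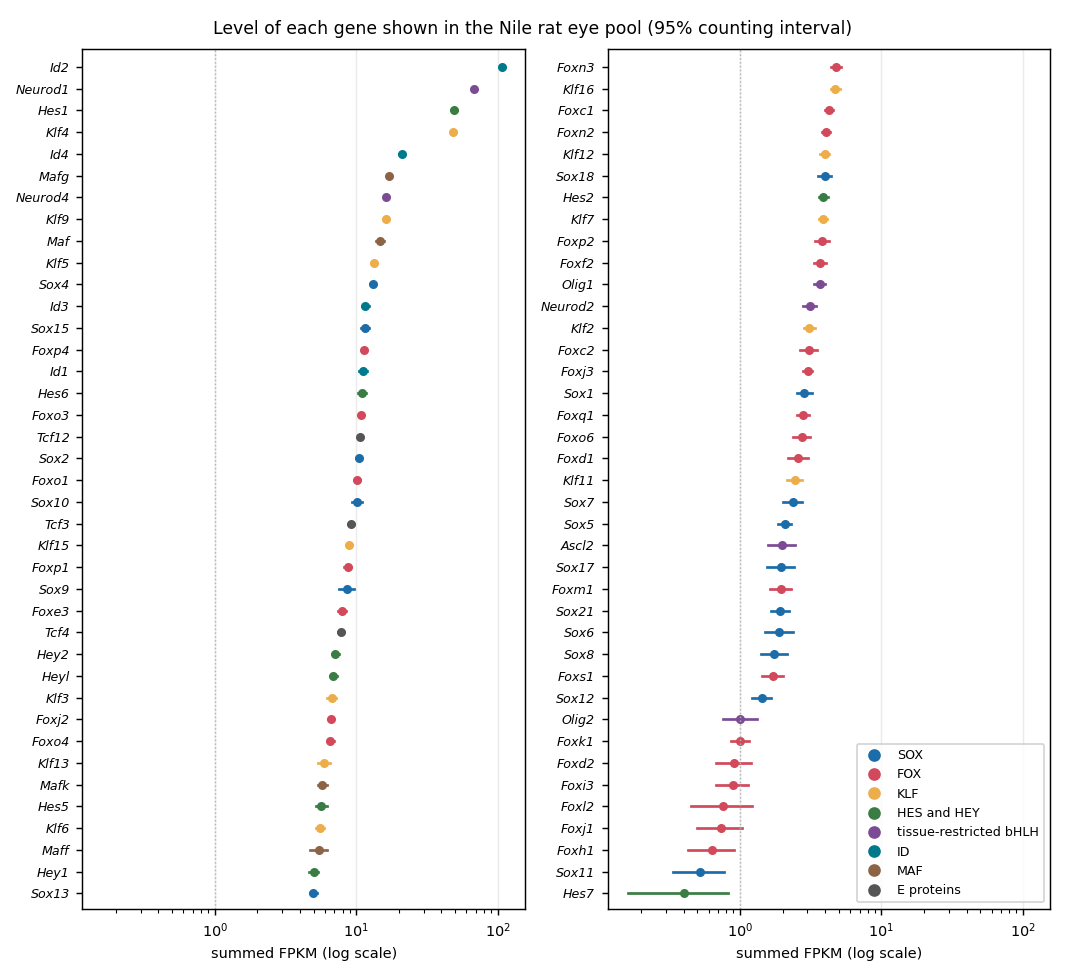
Summed FPKM of 78 of the 81 measured genes on a log axis, in order from highest (top left) to lowest (bottom right), coloured by family. Points are levels, horizontal lines are 95% counting intervals, and the dotted line marks FPKM 1; Id2, Neurod1, Hes1 and Klf4 stand above the rest, and intervals widen for the 7 genes shown under FPKM 1.

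The families differed in how their RNA was spread over their members. The 4 ID genes were all at or above 11.1 FPKM and made 21.1% of the summed FPKM. The 12 KLF genes made 17.1%, the 26 FOX genes 14.7% and the 7 genes of the NEUROD, ASCL and OLIG group 13.1%. The 8 HES and HEY genes made 12.4%, the 16 SOX genes 11.0%, the 5 MAF genes 6.63% and the 3 E proteins 3.86%. Family medians were 16.3 FPKM for ID, 9.22 FPKM for E proteins, 6.27 FPKM for HES and HEY, 5.76 FPKM for MAF and 5.73 FPKM for KLF. They were 3.12 FPKM for NEUROD, ASCL and OLIG, 3.03 FPKM for FOX and 2.60 FPKM for SOX.

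**Figure D2:**
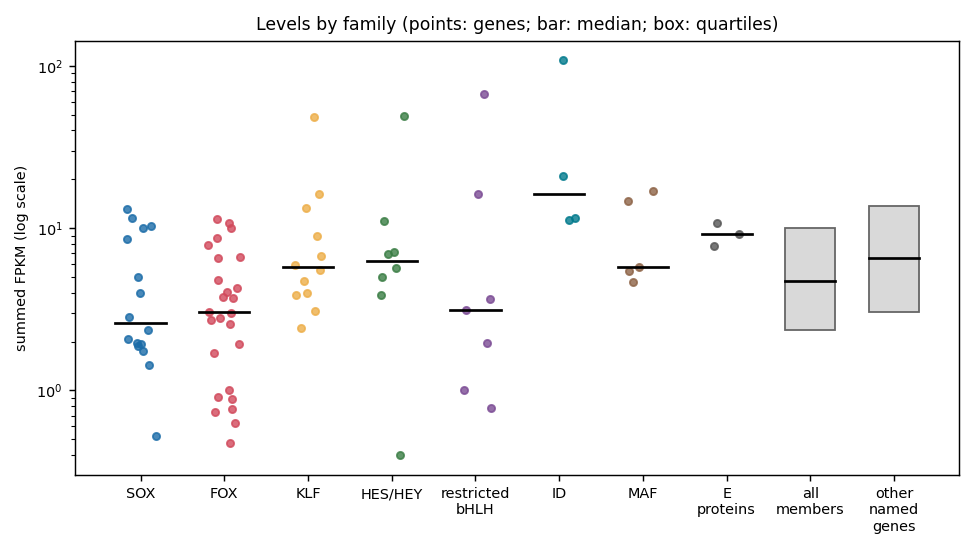
Summed FPKM of each gene by family on a log axis, with a bar at the family median; the boxes at the right show the median and quartiles of all 81 members and of the other genes with a symbol. ID genes have the highest median, 16.3 FPKM. The ID group, the KLF group, the HES and HEY group and the NEUROD, ASCL and OLIG group each have 1 gene well above the others.

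Of the SOX genes, 16 carried a symbol. Of these, 15 reached FPKM 1, against 93.2% of all genes with a symbol, and 5 reached FPKM 5, against 59.8% of all. Sox4 was the highest at 13.0 FPKM [12.5 to 13.6], Sox15 was at 11.6 FPKM [10.9 to 12.4] and Sox2 at 10.4 FPKM [9.89 to 10.9]. Sox4 was the sum of transcripts at 6.64 and 6.39 FPKM, each below Sox15 and Sox2. It belongs to the SOXC group, which acts in young neurons and, in mouse, in the formation of retinal ganglion cells. Its group members Sox11, at 0.520 FPKM [0.335 to 0.771], and Sox12, at 1.43 FPKM, were far lower, and Sox4 was 25.1-fold [16.8 to 37.3] above Sox11. On the log2 scale this ratio was 4.65, or 3.68 with the higher of the 2 Sox4 transcripts in place of their sum. Sox15 is the single SOXG gene of mammals, known in mouse from muscle repair and placenta, and its value rested on 1 transcript of 1244 nt with 937 fragments. In the Nile rat RefSeq annotation the spans of 6 of the 81 genes overlap another protein-coding gene: Sox15 (Mpdu1), Neurod4 (Tespa1), Foxm1 (Tex52), Foxh1 (Kifc2), Sox1 and Sox21. With genes that do not code for protein included, 18 of the 81 overlap another annotated gene. The others are Sox2, Sox5, Sox11, Klf12, Klf13, Klf15, Tcf4, Tcf12, Foxn2, Foxn3, Foxq1 and Hes7. The sources used here do not say whether the library kept the strand. The levels of these 18, and ratios that use them, may therefore include fragments of an overlapping gene.

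Sox2, a factor of neural progenitors that persists in Müller glia and some amacrine cells, was 3.65-fold [3.21 to 4.15] above Sox1 (2.84 FPKM), which is needed in mouse for lens fibre elongation. Sox21, of the SOXB2 group, was at 1.92 FPKM. The 3 SOXE genes of glia and neural crest summed to 20.4 FPKM. Sox9, of Müller glia, was at 8.56 FPKM [7.60 to 9.61], Sox10, of oligodendrocytes and melanocytes, was at 10.1 FPKM [9.27 to 10.9], and Sox8 was at 1.75 FPKM [1.41 to 2.15]. Sox9 over Sox10 was -0.24 on the log2 scale [-0.44 to -0.03], and Sox9 was 4.89-fold above Sox8. Sox9 rested on a transcript of 518 nt, shorter than those of most factors. The 3 SOXF genes of endothelium were at 3.96 FPKM for Sox18, 2.36 FPKM for Sox7 and 1.95 FPKM for Sox17. Of the SOXD genes, which lack a transactivation domain, Sox13 was at 4.99 FPKM, while Sox5 at 2.07 FPKM and Sox6 at 1.89 FPKM did not differ beyond counting error.

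FOX genes were the largest family, with 26 carrying a symbol, and the one with most members at the low end: 6 of the 9 factors under FPKM 1 were FOX genes. The highest were Foxp4 at 11.3 FPKM [10.9 to 11.7], Foxo3 at 10.8 FPKM [10.5 to 11.1] and Foxo1 at 10.1 FPKM [9.61 to 10.6]. The FOXO proteins act below insulin signalling, where AKT phosphorylates them and 14-3-3 proteins hold them in the cytoplasm. Foxo4 was at 6.55 FPKM and Foxo6 at 2.73 FPKM, and the 4 genes summed to 30.2 FPKM. Foxo1 over Foxo3 was -0.10 on the log2 scale [-0.18 to -0.02]. With the highest transcript alone it was -1.04, since Foxo1 was the sum of transcripts at 5.23 and 4.86 FPKM. Of 9 listed genes that control FOXO proteins, 7 carried a symbol and all 7 reached FPKM 1, against 93.2% of all genes with a symbol. The 14-3-3 genes Ywhaz at 306.8 FPKM and Ywhae at 122.8 FPKM were highest. Foxp1, at 8.73 FPKM, was 2.30-fold above Foxp2, at 3.79 FPKM. Both encode repressors known from subsets of retinal and brain neurons.

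Foxe3, a factor of the lens epithelium whose loss disrupts lens formation in mouse, was at 7.92 FPKM [7.39 to 8.47]. Foxc1 and Foxc2, which act in the mesenchyme around the eye and in the drainage angle, were at 4.26 FPKM [3.99 to 4.54] and 3.06 FPKM [2.65 to 3.53], so Foxc1 was 1.39-fold higher. Foxf2 at 3.70 FPKM and Foxq1 at 2.78 FPKM were close to these. Foxd1, of temporal retina and of stroma, was at 2.57 FPKM. The widely expressed Foxj2 was at 6.59 FPKM, 2.20-fold above Foxj3, and Foxn3 and Foxn2 were at 4.81 and 4.06 FPKM. Foxk1 stood at the detection threshold, with 1.01 FPKM [0.869 to 1.16]. Foxs1, of pericytes, was at 1.71 FPKM, and Foxm1, of dividing cells, was at 1.94 FPKM.

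Of the 9 genes under FPKM 1, 7 are given here: Foxd2 (0.910 FPKM), Foxi3 (0.889 FPKM), Foxl2 (0.765 FPKM), Foxj1 (0.734 FPKM), Foxh1 (0.632 FPKM), Sox11 (0.520 FPKM) and Hes7 (0.401 FPKM). For 5 of the 9 the interval reached FPKM 1. Just above the threshold were Foxk1 and Olig2, both with intervals that reached below it. Some of the 7 are known from narrow or embryonic sites: Foxj1 from cells with motile cilia and Foxl2 from eyelid and ovary. Foxh1 is known from Nodal signalling in the embryo, Foxi3 from ectodermal placodes and Hes7 from the segmentation clock. The transcripts of the 7 were short, from 269 to 1073 nt, and Hes7 rested on 7 fragments. Kifc2, which overlaps Foxh1, was at 5.16 FPKM.

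All 12 measured KLF genes reached FPKM 1, against 93.2% of all genes with a symbol. Of the 12, 7 reached FPKM 5, against 59.8% of all. Klf4, which in mouse is needed for a mature corneal epithelium and for goblet cells of the conjunctiva, was highest at 48.6 FPKM on 2615 fragments and a transcript of 829 nt. Klf9, a factor induced by thyroid hormone and glucocorticoids, was at 16.1 FPKM [15.5 to 16.8], and Klf5, of proliferating epithelia, was at 13.3 FPKM [12.8 to 13.8]. Klf4 was 3.65-fold [3.46 to 3.85] above Klf5 and 15.7-fold [14.3 to 17.3] above Klf2, the shear-responsive factor of endothelium, which was at 3.09 FPKM. The keratins of the corneal epithelium in the same pool were at 91.0 FPKM for Krt12 and 40.2 FPKM for Krt14.

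Of the KLF genes whose products bind SIN3A, Klf13 at 5.92 FPKM, Klf16 at 4.72 FPKM and Klf11 at 2.44 FPKM stood below Klf9, and Klf9 was 2.73-fold above Klf13. Klf15, a glucocorticoid-responsive regulator of metabolism, was at 8.88 FPKM. Klf3 and Klf12, which bind the corepressor CtBP, were at 6.71 and 3.98 FPKM. Klf3 was the sum of 3 transcripts of 1.88 to 2.46 FPKM with fractional fragment counts. Klf7, known for axon growth in neurons, was at 3.88 FPKM. Klf6 was at 5.55 FPKM, but a further transcript named KLF6 in human and Copeb in rat, an older name of the gene, was at 18.6 FPKM [17.8 to 19.5]. With it Klf6 would stand at 24.2 FPKM, above Klf9.

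Hes1 stood far above the other Notch-linked repressors. At 49.0 FPKM it was 8.67-fold [7.84 to 9.58] above Hes5, at 5.66 FPKM, which is also a Notch effector of neural progenitors and glia. Hes6, which counteracts HES1 and promotes neuron formation, was at 11.0 FPKM [10.4 to 11.7], and Hes2 was at 3.89 FPKM. The Hes1 level was the sum of transcripts of 622 nt at 29.1 FPKM and of 565 nt at 20.0 FPKM, and with the higher one alone Hes1 was above Hes5 by 2.36 on the log2 scale, against 3.12 with the sum. The HEY genes, targets of Notch in vessels, lay close together, with Hey2 at 7.10 FPKM [6.71 to 7.51], Heyl at 6.88 FPKM [6.53 to 7.26] and Hey1 at 5.03 FPKM [4.67 to 5.40]. Hey1 over Hey2 was -0.50 on the log2 scale. Of 17 listed Notch pathway genes, 15 carried a symbol, with a median of 3.95 FPKM. All 15 reached FPKM 1, against 93.2% of all genes with a symbol, and none reached FPKM 10, against 34.0% of all. Lfng, a modifier of Notch receptors, at 9.25 FPKM and the DNA-binding partner Rbpj at 8.91 FPKM were highest. Notch2 was at 4.97 FPKM, Notch3 at 1.60 FPKM and Notch1 at 1.09 FPKM, against 6.35 FPKM for the ligand Jag2 and 3.13 FPKM for Jag1.

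Among the bHLH factors of restricted tissues, Neurod1 and Neurod4 were the highest. Neurod1, which keeps photoreceptors alive and acts in amacrine cells, was at 67.6 FPKM on 10689 fragments of a transcript of 2435 nt, the largest count of the 81 genes. It was 4.17-fold [4.01 to 4.32] above Neurod4, a factor of bipolar and amacrine cells, at 16.2 FPKM [15.7 to 16.8], whose span overlaps Tespa1. Neurod2, of amacrine and ganglion cells, was at 3.12 FPKM. The photoreceptor factor Crx was at 91.8 FPKM in the same pool. Ascl2, known from trophoblast and intestinal stem cells, was at 1.97 FPKM. The oligodendrocyte factors Olig1 and Olig2 were at 3.65 FPKM [3.34 to 3.99] and 1.01 FPKM [0.754 to 1.32], so Olig1 was 3.62-fold higher. The myelin gene Mbp was at 118.0 FPKM.

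The ID genes had the highest family sum, 151.7 FPKM. With a length-weighted mean of transcripts they summed to 82.0 FPKM, below the KLF genes at 115.6 FPKM. Id2 was at 108.0 FPKM, Id4 at 20.9 FPKM [20.2 to 21.7], Id3 at 11.6 FPKM [11.0 to 12.3] and Id1 at 11.1 FPKM [10.4 to 11.9]. Id1 and Id3 did not differ beyond counting error, while Id2 was 5.16-fold [4.89 to 5.45] above Id4. The Id2 level depended on a short transcript: 75.2 FPKM came from 229 nt, named in rat only, and 32.8 FPKM from 1543 nt, named in mouse. The 1543 nt transcript alone, at 32.8 FPKM, was above Id4, and with a length-weighted mean of both the log2 ratio was 0.87, against 2.37 with the sum. Their E protein partners were lower and close together, at 10.7 FPKM for Tcf12, 9.22 FPKM for Tcf3 and 7.79 FPKM for Tcf4. Tcf4 over Tcf12 was -0.46 and Tcf3 over Tcf12 was -0.22 on the log2 scale. Summed, the ID genes stood 5.47-fold [5.26 to 5.69] above the E proteins, and 2.96-fold with a length-weighted mean of transcripts. ID genes are known targets of BMP signalling. Of 17 listed BMP pathway genes, 15 carried a symbol and all 15 reached FPKM 1, against 93.2% of all genes with a symbol. The ligand Bmp7 at 28.75 FPKM and Smad1 at 11.7 FPKM were highest.

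All 5 measured MAF genes reached FPKM 1, against 93.2% of all genes with a symbol. The small MAF genes, whose products lack an activation domain and pair with CNC factors such as NRF2, were led by Mafg at 17.0 FPKM [16.5 to 17.6], with Mafk at 5.76 FPKM and Maff at 5.46 FPKM. Mafg was the sum of 3 transcripts at 7.34, 4.88 and 4.79 FPKM, named from rat, human and mouse. Its ratio to Mafk was 1.56 on the log2 scale with the sum, 0.35 with the highest transcript and 0.01 with a length-weighted mean. With mouse names alone it was -0.27, so which of these genes is higher depends on how transcripts are combined. Each Mafg transcript was also below Maf, the second highest gene of the family as sums. Among their partners and regulators, all 6 listed genes reached FPKM 1, against 93.2% of all genes with a symbol. Nfe2l2 (NRF2) at 50.9 FPKM and Nfe2l1 at 29.8 FPKM were highest. Of the large MAF genes, Maf, an activator of crystallin genes in lens fibres, was at 14.75 FPKM [13.8 to 15.7]. A further transcript with the symbol Maf has no value in the table used here and was not analysed. Another, named Mmd in mouse and human but Maf in rat, was at 35.3 FPKM and was not counted as Maf.

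**Figure D3:**
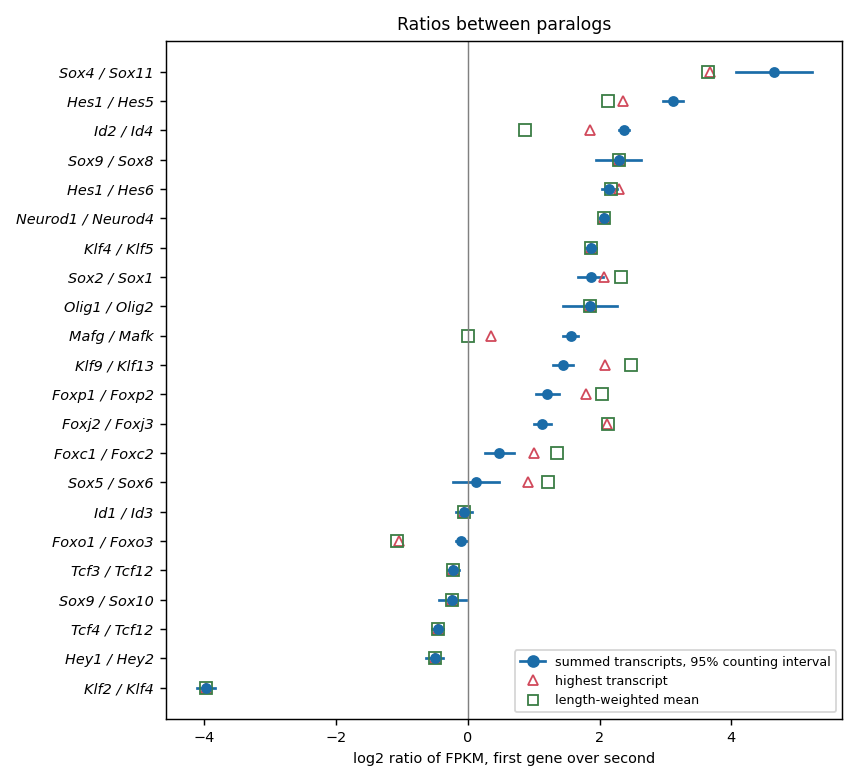
Log2 ratio of FPKM between the genes of 22 of the 23 measured pairs, first gene over second, with filled points and 95% counting intervals for summed transcripts, triangles for the highest transcript and squares for a length-weighted mean. Sox4 over Sox11 is the largest at 4.65 and Klf2 over Klf4 the lowest at -3.97; symbols coincide where a single transcript carries each gene and part most for Mafg over Mafk and Id2 over Id4.

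Of 25 pairs of related genes, 23 could be measured, and 15 differed by more than 2-fold. The first gene was higher in 16 pairs. With the highest transcript of each gene in place of the sum, the log2 ratio was 2.11 for Foxj2 over Foxj3 (1.13 with sums), 1.79 for Foxp1 over Foxp2 (1.20) and 2.08 for Klf9 over Klf13 (1.45). It was 1.01 for Foxc1 over Foxc2 (0.48) and 0.91 for Sox5 over Sox6 (0.13). The intervals of 2 pairs, Id1 with Id3 and Sox5 with Sox6, held 0 with sums. These intervals cover counting error only, so a small ratio past its interval does not show that the genes differ between animals.

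The AP-2 genes were measured under their older mouse symbols. Tfap2b was at 13.4 FPKM [13.0 to 13.9], Tfap2a at 10.1 FPKM [9.71 to 10.5] and Tfap2c at 8.52 FPKM [8.12 to 8.94]. These 3 genes act in amacrine cells, and Tfap2a and Tfap2b also in horizontal cells and in the surface ectoderm and neural crest of the eye. Tfap2d at 1.22 FPKM and Tfap2e at 1.08 FPKM were lower and did not differ from each other beyond counting error (0.18 on the log2 scale [-0.30 to 0.66]). The 5 genes summed to 34.4 FPKM. Under other names as well, Klf10 (Tieg in rat) was at 5.75 FPKM and Atoh8 at 2.81 FPKM.

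Factors were also grouped by a site that each is known from. The highest and the lowest factor differed, for example, by 1.66-fold in the mesenchyme around the eye and by 61.7-fold in Müller glia and astrocytes. These are examples and not the full range over groups. The 3 measured factors of photoreceptors and bipolar cells had the highest median of the groups, 16.2 FPKM. The 2 measured factors of melanocytes and neural crest had a median of 6.07 FPKM. The 10 measured factors of Müller glia and astrocytes had a median of 10.8 FPKM, from 1.75 FPKM for Sox8 to 108.0 FPKM for Id2. The 4 of surface epithelium had a median of 10.01 FPKM and were led by Klf4. All 4 were above 5 FPKM, against 59.8% of all genes with a symbol. The 4 of the lens had a median of 9.15 FPKM, led by Maf and Sox2. The 7 of amacrine, horizontal and ganglion cells had a median of 3.88 FPKM, which became 8.63 FPKM over 10 factors with the AP-2 genes measured under older symbols. The 9 factors of vessels had a median of 3.96 FPKM, the 4 of mesenchyme around the eye 3.38 FPKM and the 4 of oligodendrocytes 2.70 FPKM. Adding the genes and transcripts under other names moved the median to 13.3 FPKM for surface epithelium, 10.1 FPKM for lens and 3.70 FPKM for the mesenchyme, where Tfap2b at 13.4 FPKM then stood above the other 4. The 13 of broad expression had a median of 6.59 FPKM. Of 12 factors known mainly from outside the eye, such as the endodermal FOXA genes, the erythroid Klf1 and the hair cell factor Atoh1, a symbol was carried by 1, Foxh1, at 0.632 FPKM. Over all these families, 81 of 121 annotated symbols were carried. A missing symbol does not show absence of RNA, since the AP-2 genes lacked one and were measured under older symbols. Several factors stand in more than 1 group, so the groups are not independent.

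**Figure D4:**
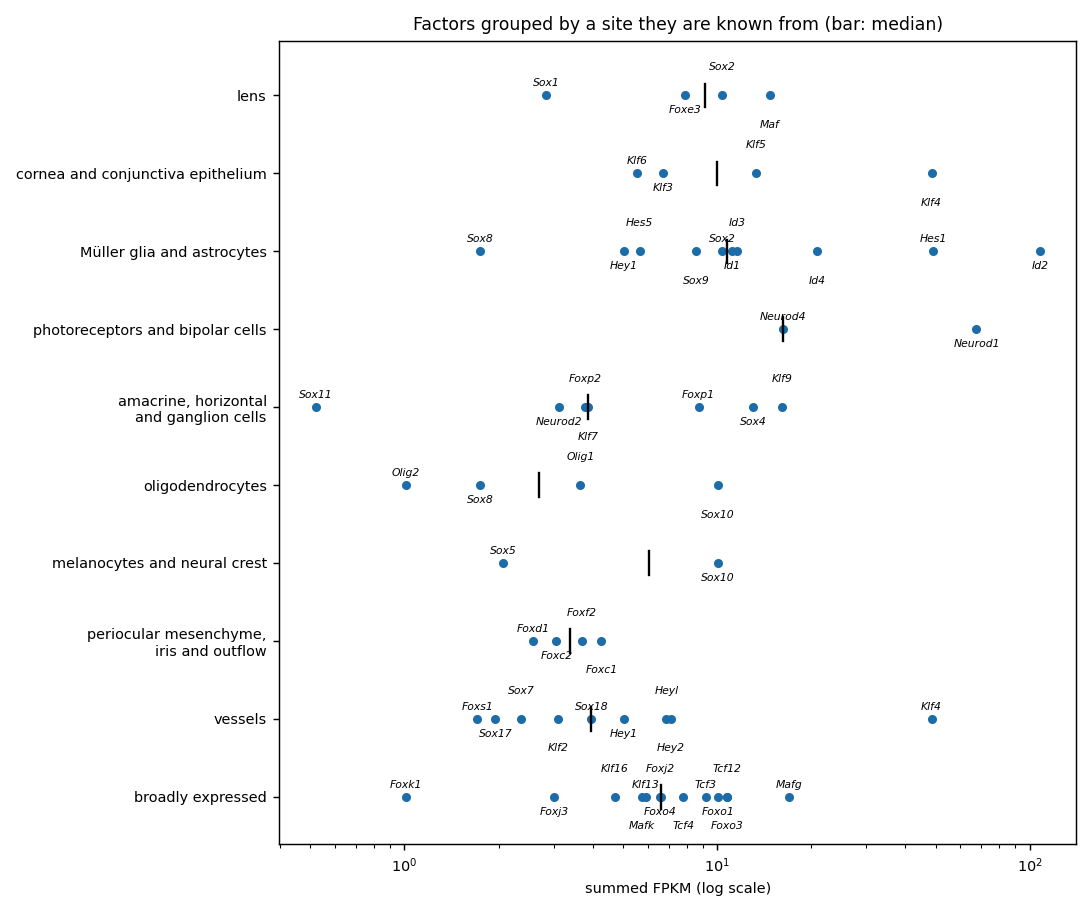
Summed FPKM on a log axis of the factors among the 81 genes that are reported by name, in groups of cell types or tissues that they are known from, with a vertical bar at the median of each group's measured factors. Klf4, Neurod1, Hes1 and Id2 stand at the high end of their groups, and the 4 factors of mesenchyme around the eye lie between 2.57 and 4.26 FPKM.

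Gene levels were sums over 100 transcripts. A single transcript carried 64 of the 81 genes, while 17 (21.0%) had 2 or more, against 9.81% of the other genes with a symbol. In 15 of the 17 the transcripts were each named from a different species. Summing counts isoforms correctly but overstates a gene whose mRNA was assembled in pieces. The median of the sum over the highest transcript was 1.72-fold in these 17 genes. In 6 of the 15 genes with 2 transcripts, Sox4, Foxo1, Foxj3, Sox17, Foxm1 and Sox6, the levels of the transcripts did not differ beyond counting error. For Sox1 they differed 7.12-fold, with 2.49 FPKM on 2032 nt and 0.350 FPKM on 484 nt. Fragment counts were fractional for 35.8% of the factors, against 43.5% of the other genes. Transcripts of the factors had a median length of 1737.5 nt, against 2159 nt for other transcripts with a symbol.

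**Figure D5:**
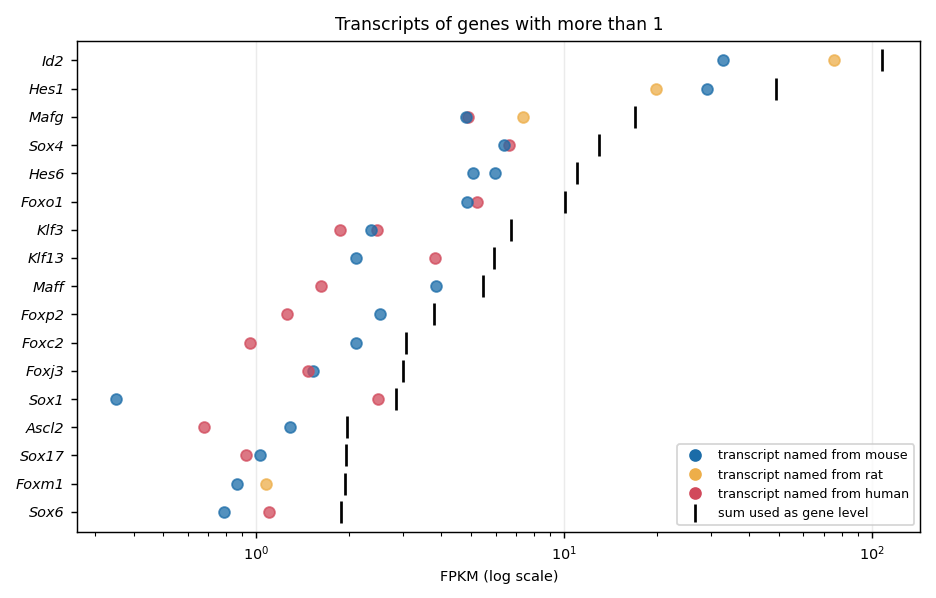
FPKM on a log axis of each transcript (points, coloured by the species column that named it) and of the sum used as the gene level (black marks) for the 17 genes with more than 1 transcript. The sum is well above every transcript for Klf3 and Mafg, with 3 transcripts each, and close to the highest transcript for Sox1.

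Some of these genes lie side by side in the Nile rat genome, as ordered in the RefSeq assembly mArvNil1.pat.X, and their levels were set beside each other. Foxc1, Foxf2 and Foxq1 follow each other with no protein-coding gene between them, and were at 4.26, 3.70 and 2.78 FPKM. Klf12 and Klf5, also neighbours, were at 3.98 and 13.3 FPKM. Olig2 and Olig1 were at 1.01 and 3.65 FPKM, and Foxe3 and Foxd2 at 7.92 and 0.910 FPKM. Neighbours had both close and distant levels. In all, the annotation holds 121 symbols of these families, and 40 of them were on no transcript with that symbol as the first name. Of these, 18 were FOX genes and 7 are the AP-2, KLF10 and ATOH8 genes measured under other names. The rest, which include Atoh7, Foxn4, Foxk2, Sox3 and Neurod6, were not analysed here, and nothing is said of their expression.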

How the data were processed

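RNA of Nile rat eyes was sequenced from a library pooled from 5 animals, per the labels' protocols. The labels list 5 samples, but the table has 1 column of values, and how the samples were combined in it is not stated. The authors deposited FPKM per transcript, scaled for length and depth per the file headers. They also deposited an estimated count of fragments per transcript, unscaled and not always whole, and the transcript length. Bowtie was used, per the submitters' processing notes. The sources used here give no version of it and do not say how transcripts were assembled or fragments divided. Dividing each estimated count by length and by the 64967222 mapped fragments gave the deposited FPKM of all 124299 transcripts above 0 fragments (relative tolerance 1e-05).

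A transcript was named by its first symbol in the order mouse, rat, human, without Ensembl or GenBank identifiers, which named 15454 transcripts of 13982 genes. Names were matched to RefSeq (assembly mArvNil1.pat.X), where all 81 symbols were found. FPKM was summed per gene. Level intervals are 95% gamma intervals for Poisson fragments, and ratios carry delta-method intervals. Both cover counting error only, since PCR copies are not independent molecules. Both were tested on simulated Poisson counts, the model that the intervals assume. That test checks the calculation and cannot cover PCR copies or the way fragments were divided between transcripts. Named are the 3 highest genes of each family, both genes of each pair, genes under FPKM 1 (the 10 lowest), members of the site lists and the 2 highest of each pathway list. Other genes named were chosen after their values were seen. A few genes that the rule names are not reported here, although counts, medians and sums include them. The members, lists and pairs were chosen with earlier results of these data known. Alternatives were other ways to combine and name transcripts, a length minimum of 500 nt, other thresholds, a pseudocount of 1, fragments in place of FPKM and rescaling. Python 3.11.15, NumPy 2.4.6, SciPy 1.17.1 and Matplotlib 3.10.9 were used.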

Additional observations from a re-analysis of the deposited data

Results flagged for a closer look

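Transcripts of these families outside the 81 genes carried from 63 to 3834 fragments each. They are listed under another first name in the ortholog table: Tfap2a at 10.1 FPKM, Tfap2b at 13.4 FPKM, Tfap2c at 8.52 FPKM, Tfap2d at 1.22 FPKM and Tfap2e at 1.08 FPKM under the older Tcfap2 symbols, Klf6 at 18.6 FPKM as Copeb, Klf10 at 5.75 FPKM as Tieg, and Atoh8 at 2.81 FPKM as "okadin type I". There were no groups of samples in which a single sample or a difference between groups could stand out.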

How the results depend on the processing

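The count of factors at FPKM 1 (72 of 81) was 38 at FPKM 5. Their median, 4.72 FPKM, was 4.06 FPKM with the highest transcript and also with a length-weighted mean, 3.89 FPKM with mouse names, 3.44 on a scale rescaled to 1000000 and 5.51 FPKM over the 72 genes at FPKM 1. Their share of 0.292% was 0.266% with the highest transcript, 0.255% with a length-weighted mean, 0.276% with mouse names, 0.329% without transcripts of conflicting symbols, 0.285% as fragments and, in an alternative chosen after seeing the data, 0.317% with human names first. The count of pairs with the first gene higher stayed within 1.5 times in every setting, from 13 of 20 with mouse names to 16 of 23. Of the 23 log2 ratios, 1 changed sign: Mafg over Mafk was -0.27 with mouse names. Of 81 gene levels, 17 lay outside their counting interval with the highest transcript. These were all 17 genes with 2 or more transcripts, while the other 64 rest on 1 transcript and could not change. No sample could be left out because the table has 1 column of values. No paired analysis was possible because the labels give 1 group. Depth limits the genes with under 100 fragments.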
